A study of Mus musculus with 14 samples.

Results

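Gene expression was compared between Th1 or Th2 cells given small interfering RNA (siRNA) against Trpm4 and the same cell type given siRNA against Thy1. These are 4 of the 14 arrays of the series, and were chosen by their labels as the Trpm4 siRNA and Thy1 siRNA arrays, 1 pair in each cell type. The probe sets described were those well above the array median in both arrays of a pair, which means a deposited signal of at least 4 times the median of the array. That limit was 102 in both Th1 arrays and 111 to 113 in the Th2 arrays.

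The 4 conditions were the 2 siRNAs, against Trpm4 or against Thy1 as control, in each of Th1 and Th2 cells. All were mouse T cells that had been polarised in culture for 2 weeks, and total RNA was hybridised to Affymetrix arrays. The study inhibited the ion channel Trpm4 with siRNA or with a dominant negative (DN) channel delivered by retrovirus, and the other 10 arrays are 2 of untreated cells and 8 of vector or DN Trpm4 cells. The control arm was a targeting siRNA that lowers Thy1 itself, so each ratio sets the loss of one transcript against the loss of the other. The labels give neither the strain, the siRNA sequences, the dose, the time from siRNA to harvest, nor whether cells were restimulated. Each condition was measured on 1 array, so p-values measure the spread between pairs of arrays and not between cultures or animals.

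Trpm4 is a cation channel of the plasma membrane that opens when intracellular calcium rises and lets sodium in. The depolarisation that follows lowers the driving force for calcium entry through the store-operated Orai channels, which in T cells feed the calcineurin and NFAT pathway and so cytokine transcription. Thy1 is a glycolipid-anchored surface protein that is abundant on mouse T cells. An siRNA guides the Argonaute complex to a matching transcript, and it can also act on transcripts that match only its seed.

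The labelled cell types were read from their markers first. All 8 T helper markers well above the median in the 4 arrays, among them Cd3e, Cd3g and Cd4, lay within 1.2-fold between the arrays of both pairs. In Th2 cells Il4, the defining Th2 cytokine, had signals of 8374 in the control array and 8478 under Trpm4 siRNA, against 25.2 and 25.8 in Th1 cells. Ifng, the defining Th1 cytokine, had 11134 and 11518 in Th1 cells and 1122 and 1270 in Th2 cells in the same order. Other lineage markers were split. The Th1 markers Il12rb2, Il18r1 and Stat4 were brighter in the Th1 arrays. The Th2 markers Il5, Il13, Gata3 and Maf were brighter in the Th2 arrays. The Th1 marker Tbx21 had 447 and 462 in Th1 cells but 830 and 862 in Th2 cells, and Cxcr3, another, 104 and 103 against 197 and 167. The Th2 marker Ccr4 had 219 and 290 in Th1 cells but 46.8 and 50.6 in Th2 cells. In all 4 arrays, 0 members of the lists of B cell, erythroid and fibroblast markers were well above the median, 1 of 15 tested macrophage and dendritic cell markers, and 1 of 6 markers of natural killer and CD8 cells, the granzyme gene Gzma. In the Th1 pair alone 4 of these 6 were, with 143 and 144 for Cd8a, the CD8 alpha chain, 1019 and 1611 for Klrk1 and 598 and 623 for Klrd1, both receptors of natural killer cells. The other Cd8a probe sets kept lay below the limit, with at most 70.7 in Th1. In Th2 cells Klrk1 had 28.6 and 32.4, Klrd1 22.8 and 29.8, and Cd8b1, the CD8 beta chain, lay below the limit in all 4 arrays. Klrk1 had a log2 ratio of 0.54 in Th1, and the part of such cells in the Th1 results was not tested. The platelet gene Itga2b and the matrix gene Lum were also above the limit in the Th1 pair, Lum with 269 and 375 and a ratio of 0.30. In the Th2 pair Eomes, a transcription factor of cytotoxic cells, had 748 and 811. The summed signal of the 15 tested macrophage and dendritic cell genes ran from 634 to 947. The log2 ratio of 3′ to 5′ signal, a sign of RNA quality and labelling, was lower under Trpm4 siRNA in the Th1 pair for all 3 control transcripts: 0.04 and -0.09 for Gapdh, 0.18 and 0.09 for Actb, and 2.01 and 1.79 for Tfrc, control array first. In the Th2 pair it was -0.11 and -0.11, 0.21 and 0.16, and 1.71 and 1.47 in the same order. Within a pair the log2 signals correlated at 0.99 in Th1 and in Th2 over 29467 probe sets, and between cell types of one siRNA at 0.94.

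Within each cell type, each target had its lowest signal in the array given its own siRNA. In Th1 cells the Thy1 probe set had a signal of 2735 under its own siRNA and 7254 under the Trpm4 siRNA, and in Th2 cells 937 and 4362. In untreated cells it had 6355 in Th1 and 6182 in Th2. Thy1 was thus lowest in the Thy1 siRNA array of each cell type, and the Trpm4 siRNA arrays lay closer to untreated cells. The log2 ratio, always given as the Trpm4 siRNA array over the Thy1 siRNA array, was 1.34 in Th1 and 2.10 in Th2, with a mean of 1.72 (SE 0.20, n = 2 pairs; limma, Benjamini-Hochberg adjusted p = 0.409). Ratios here and below are differences of quantile-normalised log2(signal + 16), a scale that understates differences at low signal. In Th1 cells Trpm4 had a signal of 100.3 in the control array and 58.4 under its own siRNA, and in Th2 cells 133 and 84.5. Untreated cells had 76.4 in Th1 and 161 in Th2. Trpm4 was lower in both Trpm4 siRNA arrays, but its signal of 100.3 was below the limit in Th1, so the transcript that was targeted is not among those well above the median. Its log2 ratios were -0.72 in Th1 and -0.63 in Th2, with a mean of -0.68 (SE 0.10, n = 2 pairs; limma adjusted p = 0.409). In Th1 cells the Thy1 siRNA array was itself above the untreated array for Trpm4, so the size of the knockdown depends on which of these is taken as reference.

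**Figure D1:**
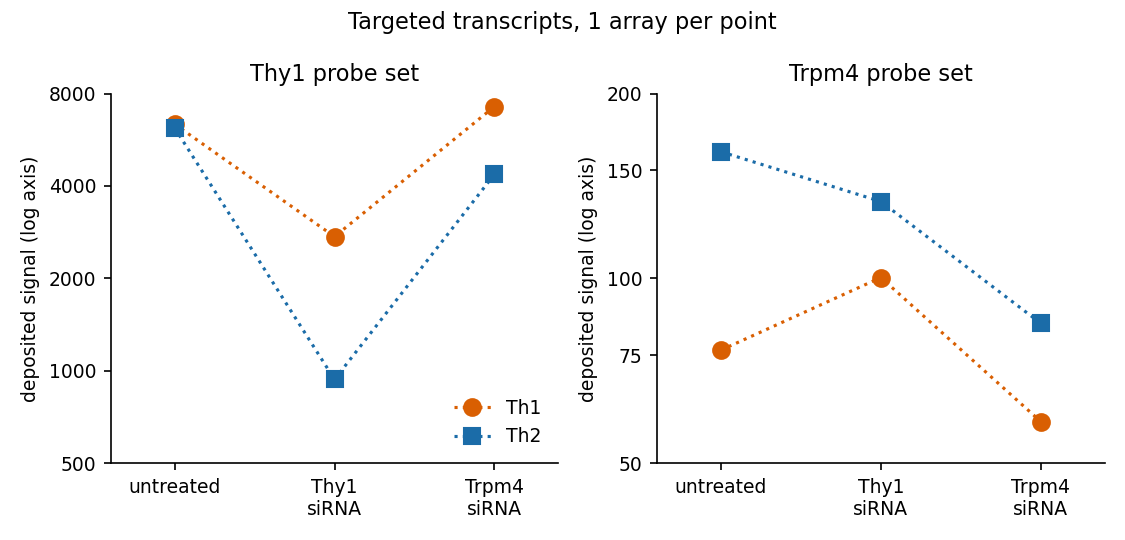
Deposited signal of the Thy1 and Trpm4 probe sets (log axes) in untreated, Thy1 siRNA and Trpm4 siRNA arrays of Th1 (circles) and Th2 cells (squares), 1 array per point, so there is no error bar. Each target is lowest in the array given its own siRNA, and Thy1 lies at 937 in the Th2 array with Thy1 siRNA against 6182 in untreated Th2 cells.

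No probe set passed an adjusted p of 0.05. The limma fit over both cell types, with the cell type as a block and 1 residual degree of freedom, called 0 of 29467 probe sets (0%), with 3318 at an unadjusted p under 0.05. For Th1 alone it called 0 (1725 unadjusted), for Th2 alone 0 (1285 unadjusted), and for the difference of the Th1 and Th2 effects 0 (973 unadjusted), each of 29467 (0%). These last 3 come from a fit of 12 arrays that borrows its spread from the DN and vector pairs, which assumes that siRNA pairs vary as those do. That spread lies between DN effects at 4 h and 12 h, so a real change with time counts in it. For probe sets well above the median in all 4 siRNA arrays, ratios had standard deviations of 0.28 and 0.22 in the Th2 DN pairs at 4 h and 12 h. The Th2 siRNA pair had 0.13. In Th1 the DN pairs had 0.14 and 0.15 and the siRNA pair 0.15. With a variance trend the fit over both cell types called 98 of 29467 probe sets, 32 higher and 66 lower. Of these 98, 57 were well above the median in all 4 arrays (18 higher, 39 lower). Of the 45 genes named by the rule for the pairs and targets, 18 were among the 98, Thy1 and Trpm4 included. Apart from the targets, these genes were chosen by the same ratios that the fit tests, so that overlap was partly built in.

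Most well-expressed transcripts lay close to no difference. In Th1 cells 11212 probe sets were well above the median in both arrays and in Th2 cells 10829, and 9846 of these, for 5906 genes by the brightest probe set of each, were so in all 4 arrays. Over the 9846 the standard deviation of the log2 ratio across probe sets was 0.15 in Th1 and 0.13 in Th2, and 92.6% and 95.3% of them lay within 1.2-fold. The spread depended on signal: below the median it was 0.32 and 0.29, at 4 to 8 times the median 0.20 and 0.18, and above 64 times the median 0.12 and 0.09. Across these 9846 probe sets the 2 pairs' ratios had a Pearson r of 0.29 and a Spearman rho of 0.22. This is a description across probe sets, which share arrays and transcripts and are not replicates.

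Differences past 1.5-fold were few, and there were more of them in Th1. In the Th1 pair 25 of 11212 probe sets were higher with Trpm4 siRNA past 1.5-fold (0.223%) and 22 were lower (0.196%). In the Th2 pair 1 of 10829 was higher (0.00923%) and 9 were lower (0.0831%). Past 2-fold, Thy1 was the only probe set higher in either pair (0.00892% in Th1) and 0 were lower. At 1.2-fold the Th1 pair had 455 higher (4.06%) and 449 lower (4%), and the Th2 pair 179 higher (1.65%) and 369 lower (3.41%). Of the 351 probe sets higher past 1.2-fold in Th1 and well above in all 4 arrays, 22 were also higher past it in Th2 (6.27%), which is 15.1% of the 146 higher in Th2. Of the 375 lower in Th1, 93 were also lower in Th2 (24.8%), or 29.6% of the 314 lower in Th2. The direction of these shared shifts rested on the scaling. Against 22 higher and 93 lower with quantile normalisation, there were 226 higher and 42 lower with the deposited values, and 278 higher and 38 lower with median centring. The balance at 1.2-fold within each pair rested on the scaling too. With the deposited values there were 1608 higher and 177 lower in Th1, and 915 and 208 in Th2. Median centring gave 1645 and 171 in Th1, and 1111 and 185 in Th2.

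**Figure D2:**
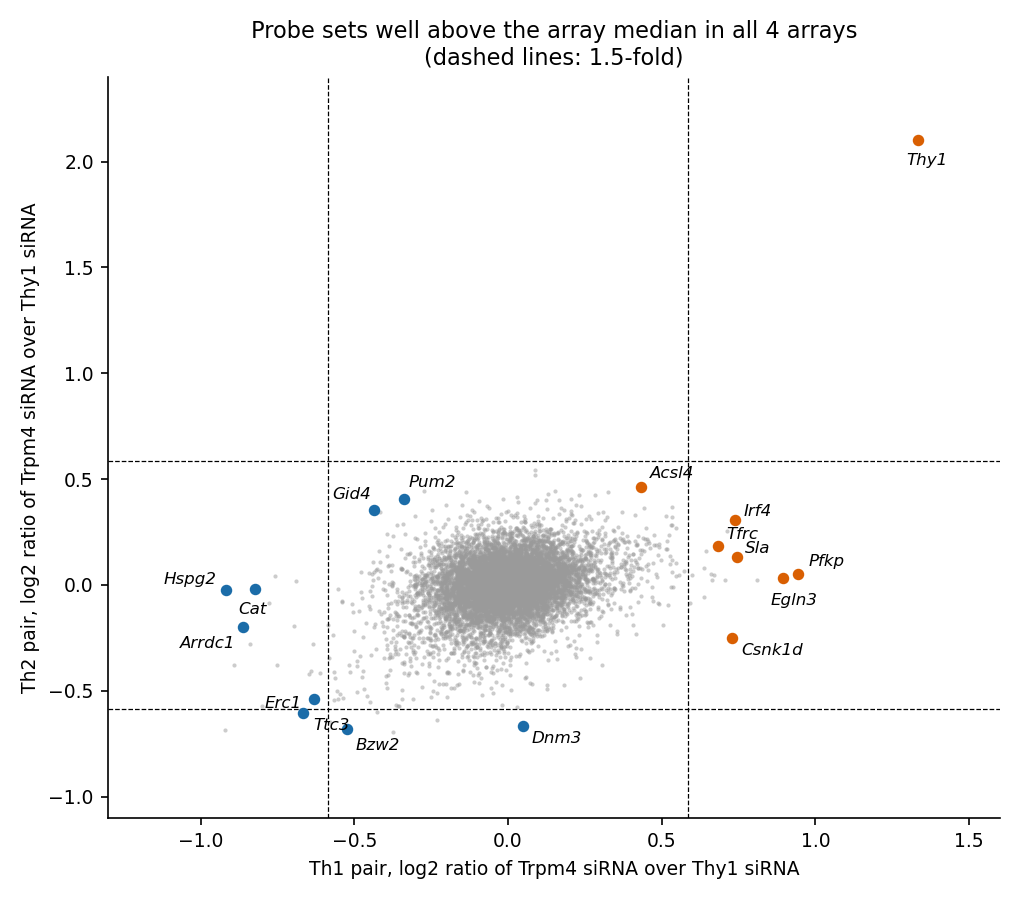
Log2 ratio of Trpm4 siRNA over Thy1 siRNA in the Th1 pair (horizontal) and Th2 pair (vertical) for the 9846 probe sets well above the array median in all 4 arrays (grey), with named genes in orange (higher) or blue (lower, or lower in Th1 and higher in Th2). Thy1 stands apart at 1.34 and 2.10, and Egln3 and Pfkp, beyond the 1.5-fold line on the right, lie at 0.03 and 0.05 in Th2.

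Past 1.5-fold in both cell types and well above in all 4 arrays, 1 of 9846 probe sets was higher (0.0102%), which was Thy1, and 2 were lower (0.0203%). One of those 2 was Ttc3, an E3 ubiquitin ligase with tetratricopeptide repeats, and the other has no gene symbol. No probe set was past 1.5-fold in opposite directions (0%), and none was past 2-fold in 1 cell type and within 1.2-fold in the other (0%). A lower pair of limits, chosen after these counts were seen, was therefore used to describe more genes: 1.25-fold in both cell types, or 1.5-fold in 1 cell type and within 1.2-fold in the other. With quantile normalisation it gave 9 shared higher (0.0914%), 57 shared lower (0.579%), 3 opposite (0.0305%), 18 higher in Th1 only (0.161%), 9 lower in Th1 only (0.0803%), 0 higher in Th2 only (0%) and 3 lower in Th2 only (0.0277%). With the deposited values the shared classes held 84 higher and 26 lower, and with median centring 103 higher and 24 lower, so their balance also rested on the scaling. The genes of these classes are described with no test, since the classes were drawn from the same ratios.

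The genes higher in both pairs are given first. Acsl4, which attaches coenzyme A to arachidonic acid, had signals of 222 and 346 in Th1 cells and 140.2 and 220.3 in Th2 cells, with Thy1 siRNA first. Both Trpm4 siRNA arrays were higher, with log2 ratios of 0.43 and 0.46 (limma adjusted p = 0.409), while its brightest probe set gave -0.04 and 0.09. Stat5b, a transcription factor downstream of the interleukin 2 receptor, had 177 and 271 in Th1 and 121 and 171 in Th2, with ratios of 0.41 and 0.33, and its other probe set gave -0.01 and 0.18. Gzmd, a granzyme of cytotoxic granules, had 1992 and 2538 in Th1 and 216 and 304 in Th2. Its ratios were 0.32 in both cell types and its second probe set gave 0.28 and 0.43, so both Gzmd probe sets were higher in both pairs, although granzyme genes are near-identical copies and may share signal. Ccl9, a chemokine, lay just under the limit at 0.32 and 0.31, with 0.11 and 0.20 on its brighter probe set. Dynlt3, a dynein light chain, Atic, an enzyme of purine synthesis, and Srprb, part of the signal recognition particle receptor, had ratios between 0.32 and 0.44 in both pairs on 1 probe set each. The brighter Atic probe set gave 0.02 and 0.04, the other Srprb probe set well above the median 0.12 and 0.24, and the other 3 of Dynlt3 between 0.03 and 0.27.

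Irf4, a transcription factor induced by antigen receptor signals, had signals of 203 and 401 in Th1 and 130.5 and 179.7 in Th2 on the probe set chosen by the naming rule. Its log2 ratios there were 0.74 in Th1 and 0.31 in Th2, against 0.28 and 0.02 on its brighter probe set, so the probe sets differed in size but not in sign. Sec61a1, the pore of the endoplasmic reticulum translocon, gave 0.53 and 0.32 on 1 probe set, 0.53 and 0.06 on a second and between -0.15 and 0.00 on the other 3 well above the median.

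Among named genes well above the median and lower in both pairs, Ttc3 led by the smaller of the 2 pair ratios. Those named below did not show ratios of that size on their other probe sets. The other probe set past 1.5-fold in both pairs, which has no gene symbol in the annotation, had signals of 790 and 411 in Th1 and 1226 and 756 in Th2, with ratios of -0.92 and -0.68. Ttc3 had signals of 169 and 108 in Th1, control first, and 270.0 and 175 in Th2, with log2 ratios of -0.67 and -0.61 (mean -0.64, SE 0.10, n = 2 pairs; limma adjusted p = 0.409). Both Trpm4 siRNA arrays were lower, but the other 2 Ttc3 probe sets well above the median gave -0.02 and -0.12, and 0.07 and 0.01. Bzw2, a translation regulator, had 441 and 319 in Th1 and 432 and 260 in Th2, with ratios of -0.52 and -0.68 against 0.14 and -0.02 on its other probe set well above the median. Vav1, a guanine nucleotide exchange factor of T cell receptor signalling, gave -0.55 and -0.51 on 1 probe set and 0.05 and 0.03 on the other. Wee1, a kinase that holds cells before mitosis, gave -0.64 and -0.41 on 1 and -0.13 and -0.07 on the other, the same sign at a smaller size.

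For the class as a whole, 15 of the 57 shared lower probe sets had another probe set of the same gene well above the median. The median of those other probe sets was 0.02 in Th1 and -0.02 in Th2, against -0.49 and -0.41 for the 15 themselves. The sign was the same in 7 of 15 in Th1 and 9 of 15 in Th2 (46.7% and 60.0%), against the 58.0% and 56.3% found over all 5113 probe sets with such a partner. In the DN Trpm4 pairs, which are other arrays, the mean ratio was below 0 in 37 of the 57 (64.9%), against 54.2% of all 9846, and all 4 DN pairs were below 0 in 2 of the 57 (3.51%, against 5.67%). The DN pairs differed in sign: the median of the 57 was -0.07 and 0.17 in Th1 at 4 h and 12 h, and 0.07 and -0.37 in Th2. Of the 57, 19 had no gene symbol or several. Shmt1, the cytosolic enzyme that moves single carbon units from serine, shows the range: its siRNA ratios were -0.49 and -0.50 and its 4 DN ratios ran from -0.45 to 0.88.

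Only 3 probe sets went opposite ways past 1.25-fold, all lower in Th1 and higher in Th2. They belong to Gid4, a substrate receptor of a ubiquitin ligase, Ninj1, a membrane protein of plasma membrane rupture, and Pum2, an RNA-binding repressor of translation. Pum2 had signals of 1231 and 982 in Th1 and 588 and 836 in Th2, with ratios of -0.34 and 0.40. Its other 2 probe sets well above the median gave -0.07 and -0.04, and 0.25 and 0.03. Those of Gid4 gave 0.01 and 0.05, and -0.09 and 0.24, and that of Ninj1 -0.02 and -0.29, so none of these went opposite ways past 1.25-fold. The limma adjusted p of the Th1 minus Th2 difference was 1 for each of the 3, so none passed the test of a difference between cell types.

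Egln3, Pfkp and Ero1a, which hypoxia is known to induce, were among the genes higher in Th1 only. Hypoxia-inducible factor binds a short core, and its spellings ACGTG and GCGTG were searched on both strands of RefSeq promoters (build GRCm38.p6, 250 bases before to 50 after each start). The promoters of these 3 genes are shown to place such letters. Capitals mark each match as it reads 5′ to 3′ on the gene's strand, so a match on the other strand appears as CACGT or CACGC. All 3 genes lie on the minus strand, Egln3 at chr12:54203825-54204124, Pfkp at chr13:6648722-6649021 and Ero1a at chr14:45318523-45318822.
Egln3: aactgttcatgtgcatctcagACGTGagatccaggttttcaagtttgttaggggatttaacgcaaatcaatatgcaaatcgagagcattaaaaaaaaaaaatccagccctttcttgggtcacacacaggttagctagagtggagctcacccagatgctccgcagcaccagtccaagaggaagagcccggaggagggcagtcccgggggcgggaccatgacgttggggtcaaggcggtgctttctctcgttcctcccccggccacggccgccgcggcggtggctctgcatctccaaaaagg
Pfkp: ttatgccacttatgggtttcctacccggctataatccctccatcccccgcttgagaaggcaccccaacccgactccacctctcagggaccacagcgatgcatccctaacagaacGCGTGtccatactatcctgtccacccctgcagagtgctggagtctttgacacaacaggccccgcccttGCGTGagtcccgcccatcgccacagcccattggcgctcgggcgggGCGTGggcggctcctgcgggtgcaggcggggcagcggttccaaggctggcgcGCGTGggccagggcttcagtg
Ero1a: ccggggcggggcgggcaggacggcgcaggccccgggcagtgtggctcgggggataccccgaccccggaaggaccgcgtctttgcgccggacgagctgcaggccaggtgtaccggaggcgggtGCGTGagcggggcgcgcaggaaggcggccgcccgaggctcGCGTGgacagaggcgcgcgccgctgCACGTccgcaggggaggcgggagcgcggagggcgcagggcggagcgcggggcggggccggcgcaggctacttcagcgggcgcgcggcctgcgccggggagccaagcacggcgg

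Egln3 held 1 match, Pfkp 4 and Ero1a 3. Of the 16 genes of the class 11 had a RefSeq promoter, with 15 promoters between them, and 11 of these 15 held a match (73.3%). The share was 43.8% of all 32851 promoters and 65.4% of the 6278 promoters of genes well above the median in all 4 arrays. A match is a run of letters and not a bound site, and no binding was measured here.

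Egln3, a prolyl hydroxylase that marks hypoxia-inducible factor for destruction and is itself induced by it, had in Th1 cells a signal of 224 in the control array and 497 under Trpm4 siRNA. In Th2 cells it had 343 and 379. The Th1 array with Thy1 siRNA was the lowest of the 4, and untreated cells were above all of them, at 798 in Th1 and 1729 in Th2. Its log2 ratio was 0.90 in Th1 (SE 0.20, borrowed; limma adjusted p = 0.541) and 0.03 in Th2. The second Egln3 probe set gave 0.81 and 0.02, so both showed the shift in Th1 and neither in Th2. The Th1 minus Th2 difference had a limma adjusted p of 1, and in the 4 DN pairs the Egln3 ratio ran from -0.30 to -0.01.

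Pfkp, the platelet type of phosphofructokinase and a control point of glycolysis, had signals of 171 and 397 in Th1 and 315 and 353 in Th2. Its ratios were 0.94 and 0.05, but its brightest probe set, with 1148 and 1445 in Th1 and 1342 and 1370 in Th2, gave 0.22 and -0.01. The dimmest of its probe sets, with 78.6 and 117 in Th1 and 74.6 and 109 in Th2, was not well above the median in all arrays and gave 0.36 and 0.39. All 3 probe sets were higher in Th1, at sizes that differ, and the dimmest was as much higher in Th2. Ero1a, an oxidase of the endoplasmic reticulum that hypoxia induces, gave 0.60 and 0.04 on 1 probe set. Its probe set brightest in Th2 gave 0.42 and 0.08. The Ero1a probe set brightest in Th1, with signals of 1595 and 2002 there, gave 0.25 and -0.07, so it was within 1.2-fold in both pairs.

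Tfrc, the transferrin receptor, which brings iron into dividing cells, was read by 3 probe sets and 3 control probe sets. Of the 3 probe sets, 2 gave 0.68 and 0.64 in Th1, while the brightest, with signals of 5396 and 5779, gave 0.04. The 3 control probe sets gave 0.44, 0.59 and 0.56 in Th1, so 5 of the 6 were higher there. In Th2 the 6 lay between -0.18 and 0.22. Signal within the Tfrc transcript was uneven, since the log2 ratio of the 3′ over the 5′ control was 2.01 and 1.79 in the Th1 pair. The part of that shift in the Th1 results was not tested.

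Other named genes were higher in the Th1 pair. Sla, an adaptor that lowers T cell receptor levels, had signals of 252 and 498 in Th1 and 2539 and 2832 in Th2, with ratios of 0.74 and 0.13. Its brighter probe set gave 0.40 and -0.14, and a dimmer one well above the median 0.27 and -0.35, so the sign differed in Th2. Tnfaip3, an inhibitor of NF-kappaB, had 104 and 205 in Th1 and 214 and 236 in Th2, with ratios of 0.71 and 0.02, and 0.28 and 0.09 on its brighter probe set. Csnk1d, a casein kinase, gave 0.73 in Th1 on 1 probe set and 0.01 to 0.29 on its other 4. Rnf146, a ubiquitin ligase, gave 0.70 and had another probe set at -0.04. Of the 15 probe sets of the class with another probe set of the gene well above the median, 13 had the same sign in Th1 (86.7%, against 58.0%). The median over those others was 0.22, against 0.70 for the 15 themselves, and in 12 of the 15 the probe set in the class was the dimmer. For Egln3 and Tfrc those others include probe sets that are themselves in the class, so part of this agreement was built in. In the DN pairs the mean ratio was above 0 in 6 of 18 (33.3%), against 45.8% of all 9846. The median of the 18 was -0.004 and -0.13 in Th1 at 4 h and 12 h, and -0.23 and 0.14 in Th2.

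**Figure D3:**
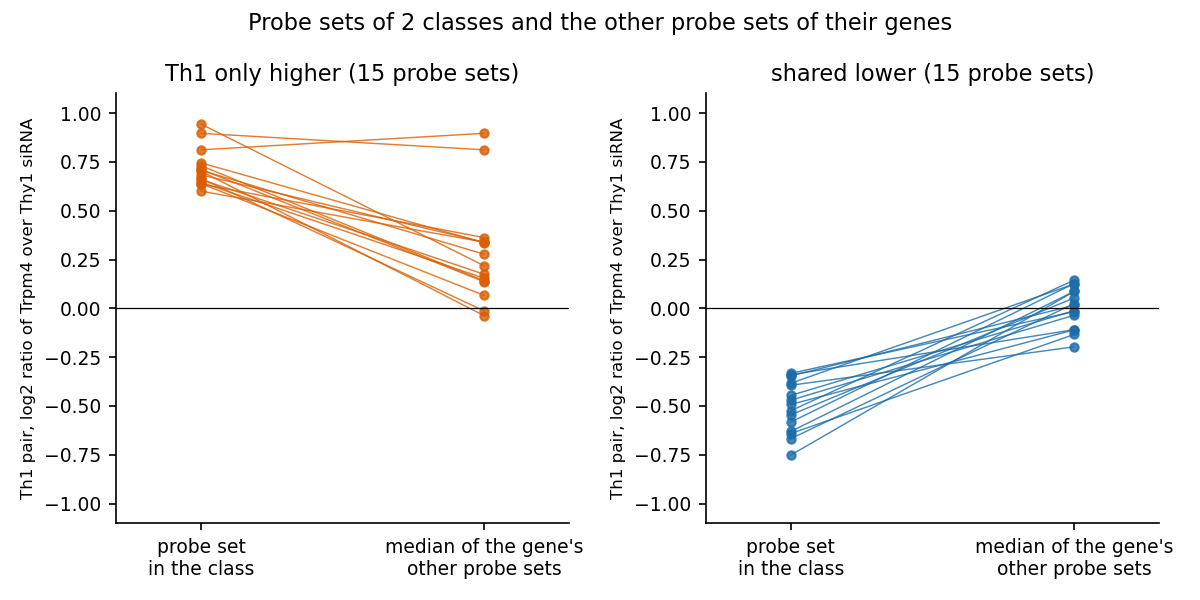
Log2 ratio of Trpm4 siRNA over Thy1 siRNA in the Th1 pair for probe sets higher in Th1 only (left, orange) and lower in both pairs (right, blue), each joined to the median of the other probe sets of its gene that are well above the array median in all 4 arrays. The probe sets of the classes are well above it in the pairs that define their class. On the left the others have a median of 0.22 and mostly stay above 0, and on the right they have a median of 0.02. The others of Egln3 and Tfrc on the left include probe sets of the class.

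Genes lower in Th1 only were led by Hspg2, Arrdc1 and Cat. Hspg2, which encodes the matrix proteoglycan perlecan, had signals of 207 and 108 in Th1 and 177 and 186 in Th2, with ratios of -0.92 and -0.03. Arrdc1, an arrestin domain protein, gave -0.86 and -0.20, but 0.09 and -0.18 on its brighter probe set. Cat, the catalase that breaks down hydrogen peroxide, had 329 and 186 in Th1 and 527 and 548 in Th2, with ratios of -0.82 and -0.02, but its other probe set gave -0.04 and 0.11. A probe set of Actb, cytoskeletal actin, gave -0.69 in Th1 with signals of 1791 and 1082. The other Actb probe set, with 10516 and 10837, gave -0.02, and the 3 Actb control probe sets lay between -0.01 and 0.07, so 4 of 5 did not show that difference. In Th2 only, Slc43a2, an amino acid transporter, had 194 and 115, with a ratio of -0.72 against 0.09 in Th1, where its signals of 47.4 and 54.8 were below the limit. Its other probe set, below the limit in all 4 arrays, gave 0.55 in Th2. Dnm3, a dynamin, had 271 and 167, with -0.67 against 0.05.

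The gene lists were read with 1 probe set per gene, the brightest, among genes well above the median in all 4 arrays. Over all 5906 genes the median ratio was -0.01 in Th1 and 0.00 in Th2. Of these, 46.1% were above 0 in Th1 and 49.8% in Th2, 25.3% in both, and 29.3% were below 0 in both. With the deposited values the medians were 0.09 and 0.06, and 75.7% and 71.5% were above 0, and with median centring they were 0.09 and 0.08, with 76.4% and 76.0% above 0. The centring of small ratios therefore rests on the scaling, and list medians are read relative to those of all genes. In each of these lists limma called 0 members (0% of 29467 probe sets called over all).

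Of the calcium channels and pumps, the pathway that Trpm4 acts on, 10 of 21 tested genes were well above the median. By their brightest probe sets, 0 of the 10 were past 1.2-fold in either pair. Of all genes, 1.54% were higher past it and 3.28% lower in Th1, and 0.931% and 2.83% in Th2. A dimmer probe set of the pump gene Atp2a2 gave -0.34 and -0.36, against -0.02 and -0.10 on its brightest. The median ratio of the 10 genes was -0.01 in Th1 and -0.03 in Th2. Orai1, the pore of store-operated entry, had signals of 346 and 377 in Th1 and 1007 and 932 in Th2, with ratios of 0.00 and -0.13. Stim2, a calcium sensor of the endoplasmic reticulum, gave 0.01 and 0.11, and Kcnn4, the calcium-activated potassium channel, 0.03 and -0.05. Trpm7, a related channel with a kinase domain, gave -0.21 and 0.12. For scale, the standard deviation across probe sets at 4 to 8 times the median was 0.20 in Th1 and 0.18 in Th2.

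Of 14 calcineurin and NFAT genes well above the median, 4 were above 0 in Th1 (medians -0.05 and 0.02 in Th1 and Th2). Nfatc2, which enters the nucleus when dephosphorylated by calcineurin, had 524 and 458 in Th1 and 807 and 850.5 in Th2, with ratios of -0.27 and 0.03. Nfatc1, a relative that is itself induced by NFAT, gave 0.21 and -0.13. Of 21 T cell receptor genes, 6 were above 0 in Th1 and 12 in Th2, with medians of -0.07 and 0.01, Thy1 included. Rasgrp1, an activator of Ras, gave -0.27 and -0.08, and Zap70, the kinase that binds the receptor's zeta chain, -0.19 and -0.07.

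Cytokine genes lay mostly above 0 in Th1. Of 24 well above the median, 20 were above 0 in Th1 and 13 in Th2, 11 in both and 2 below 0 in both, with medians of 0.12 and 0.05. Il3, a growth factor for blood cell precursors, had signals of 5217 and 7048 in Th1 and 4026 and 4459 in Th2, with ratios of 0.43 and 0.13. Csf2, another such factor, had 4338 and 5407 in Th1 and 2068 and 2194 in Th2, with 0.23 and 0.06. Il6, an inflammatory cytokine, gave 0.59 and -0.08. All 3 had a larger ratio in Th1 than in Th2, and limma called none of them. Il2, the T cell growth factor whose transcription NFAT drives, was well above the median in Th1 alone, with 328 and 606 and a ratio of 0.68, and near background in Th2, with 17.0 and 17.6. Of the lineage cytokines, Ifng gave 0.00 in Th1 and 0.14 in Th2, Il13 0.00 and 0.12, and Il4 and Il5 in Th2 cells 0.03 and -0.02. In Th1 cells Ifng was near the top of the signal scale, with 4 brighter probe sets in the control array and 5 under Trpm4 siRNA, where the array may not resolve a difference. Ltb, a lymphotoxin subunit, was the lowest in Th1, at -0.34.

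Glycolysis and hypoxia-induced genes had the highest list median in Th1. Of 24 well above the median, 22 were above 0 in Th1 and 15 in Th2, 15 in both and 2 below 0 in both, with medians of 0.16 and 0.04. In Th1, 6 of the 24 were higher past 1.2-fold, against 1.54% of all genes, and 0 were lower past it, against 3.28%. In Th2, 1 was higher past it, against 0.931%, and 0 were lower, against 2.83%. Bnip3, a mitophagy protein induced by hypoxia, had signals of 984 and 1579 in Th1 and 790 and 810 in Th2, with ratios of 0.54 and -0.01. Pdk1, which closes the entry of pyruvate into mitochondria, gave 0.37 and 0.10. Slc2a3, a glucose transporter, had 1002 and 1378 in Th1 and 1712 and 1977 in Th2, with 0.33 and 0.17. Of the glycolytic enzymes with bright signals, Ldha gave 0.07 and -0.01, Pgk1 0.11 and 0.03, Pgam1 0.13 and 0.07, Pkm 0.14 and 0.09, Tpi1 0.18 and 0.05, and Aldoa 0.00 and 0.03. The Gapdh controls gave 0.19 at the 5′ end, 0.13 in the middle and 0.03 at the 3′ end in Th1, so ratios of this size differed within 1 transcript, and the part of that in the list median was not tested. Hif1a itself, the oxygen-regulated subunit of the factor, gave -0.07 and -0.08. Under the scalings and pseudocounts tried the list median ran from 0.15 to 0.22 in Th1 and from 0.04 to 0.11 in Th2. In the DN pairs it was -0.01 and -0.06 in Th1 at 4 h and 12 h, and -0.16 and 0.10 in Th2.

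**Figure D4:**
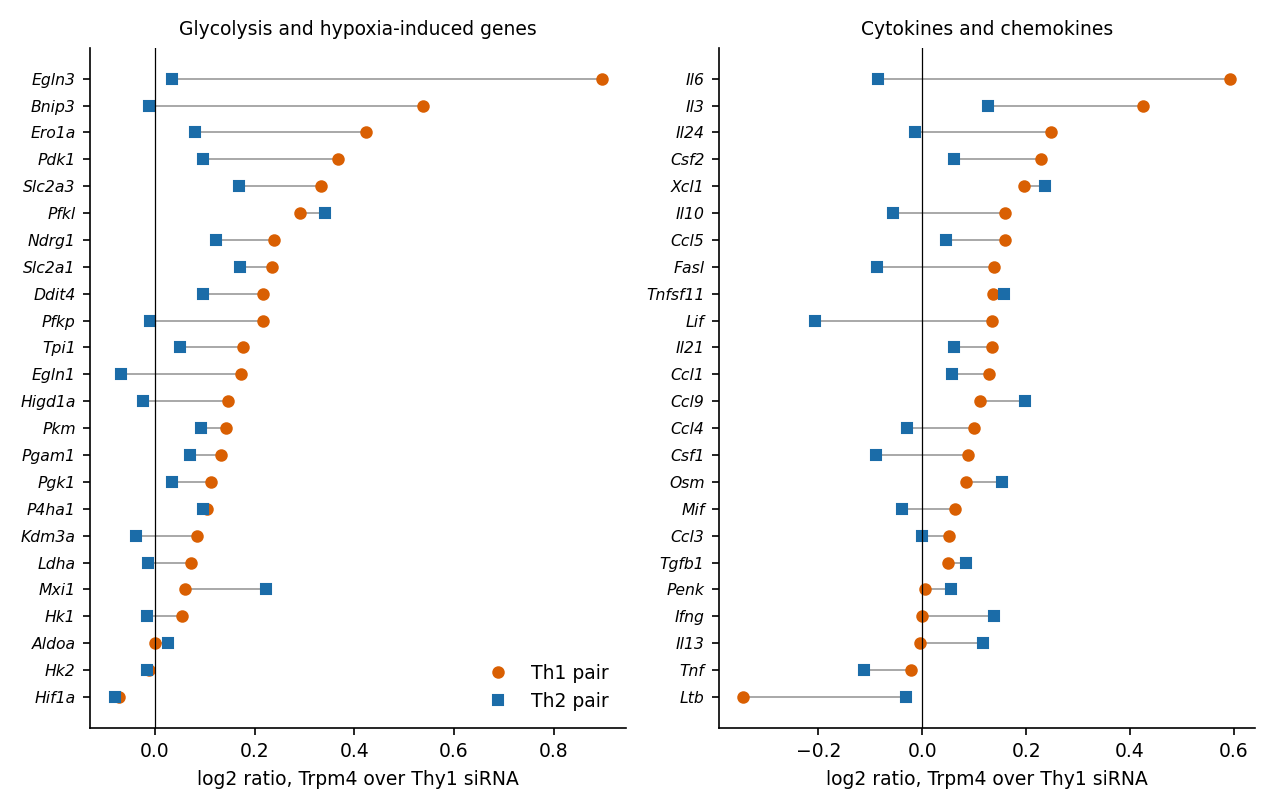
Log2 ratio of Trpm4 siRNA over Thy1 siRNA in the Th1 pair (circles) and Th2 pair (squares) for each member of the glycolysis and hypoxia list (left) and the cytokine list (right) well above the array median in all 4 arrays, 1 brightest probe set per gene and 1 pair of arrays per point. Egln3 and Bnip3 lie at 0.90 and 0.54 in Th1 and near 0 in Th2, and Pfkl is above 0.29 in both.

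Early activation genes had medians of 0.05 in Th1 and 0.00 in Th2, with 23 of 29 above 0 in Th1 and 14 in Th2. Ctla4, an inhibitory receptor, had 657 and 941 in Th1 and 2124 and 2156 in Th2, with ratios of 0.38 and -0.01. Nr4a1, an immediate early nuclear receptor, gave 0.24 and 0.00, while Egr1, Jund and Nfkbia lay between -0.12 and 0.03 in both pairs. The 26 DNA replication and mitosis genes had medians of -0.09 and -0.03, with 6 above 0 in Th1 and 13 below 0 in both. Ccne1, a cyclin of entry into S phase, had 594 and 451 in Th1 and 330 and 346 in Th2, with -0.45 and -0.03. Mcm7, a subunit of the replicative helicase, gave -0.19 in both. Over the scalings tried the Th1 median of these 26 genes stayed below 0, from -0.09 to -0.02, while the Th2 median ran from -0.03 to 0.04.

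RNA interference genes were read because both arms carried an siRNA. Of 10 well above the median, 0 were above 0 in both pairs and 5 were below in both, with medians of -0.06 and -0.08, and 0 were past 1.2-fold. Over all genes 25.3% were above 0 in both pairs and 29.3% below in both, and the small shares past 1.2-fold are given above. Ago2, the Argonaute that cuts the target, had signals of 1010 and 1007 in Th1 and 1401 and 1504 in Th2, with ratios of -0.06 and 0.07. The double-stranded RNA and interferon genes, which an siRNA can set off, had medians of -0.04 and 0.00 over 15 genes. Eif2ak2, the kinase PKR, gave -0.39 and -0.16, and Ifih1, a sensor of double-stranded RNA, 0.17 and 0.20. Th1 lineage genes (14) had medians of -0.01 and 0.01, Th2 lineage genes (11) 0.02 and 0.04, and adhesion and actin genes (31) -0.04 and 0.01. The transcription factors that define each lineage lay near 0 in their own cells: Tbx21 gave -0.06 in Th1, and Gata3 and Maf 0.04 and 0.02 in Th2.

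**Figure D5:**
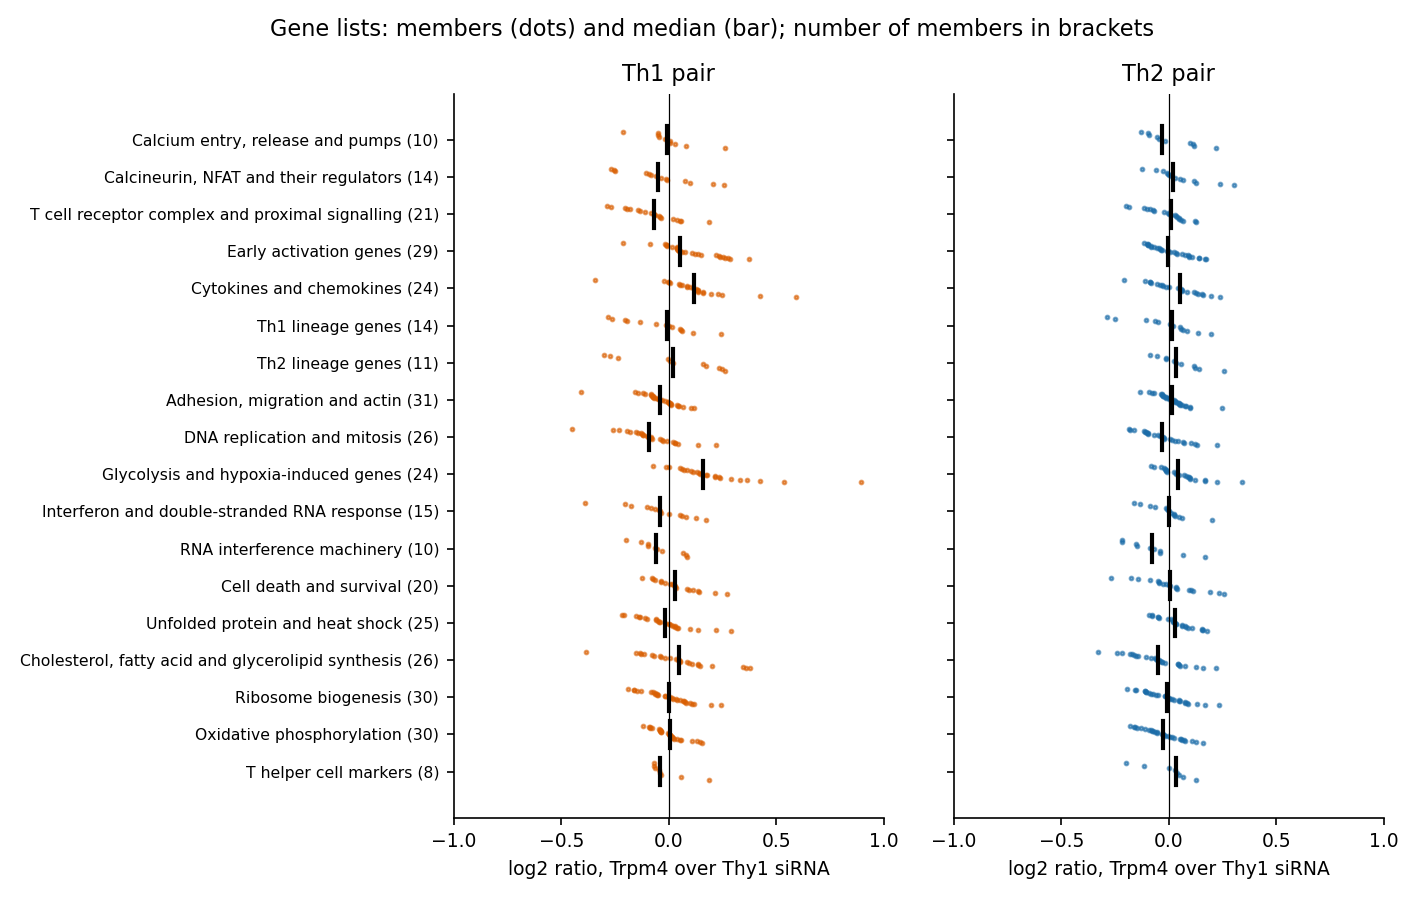
Log2 ratio of Trpm4 siRNA over Thy1 siRNA for each member (dot) of 18 gene lists in the Th1 pair (left) and Th2 pair (right), with the list median as a black bar and the number of members well above the median in brackets. Thy1, at 1.34 and 2.10 in the T cell receptor list, is outside the axes, and the glycolysis and hypoxia median of 0.16 in Th1 is the farthest from 0.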

How the data were processed

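Total RNA was extracted with Trizol and labelled with biotin, per the labels' protocols. The table deposited by the authors holds 1 linear intensity per probe set and array. Probe summary and array scaling were not given in the sources used here.

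Of 45101 probe sets, 34958 had 1 gene symbol, 932 several and 9211 none in the platform annotation, and 64 were controls, left out of tests. Signals were quantile normalised over 14 arrays and taken as log2(signal + 16), with a floor of 4. Probe sets above the array median in at least 2 arrays were kept, 29467 for 13118 genes. The number of arrays limits precision.

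Models were fitted with limma 3.58.1 (lmFit, eBayes; R 4.3.3), two-sided, with Benjamini-Hochberg adjustment over all probe sets kept. The siRNA effect over both cell types was fitted on 4 arrays with cell type as block. Single cell types and their difference came from 12 arrays with the pair as block, with spread from the DN and vector pairs. Fits were tested on simulated data.

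Named genes, 1 probe set each with 1 symbol, were Trpm4, Thy1, the 12 higher and 12 lower with the largest smaller ratio in both pairs, up to 8 per direction in 1 cell type, opposite ones and list members. Other genes were named after their values were seen. Members and the 23 lists were chosen with earlier results of these data known. Alternatives were other scalings, pseudocounts, filters, signal limits, folds and fits, and pairs left out in turn. Promoters came from RefSeq.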

Additional observations from a re-analysis of the deposited data

How the results depend on the processing

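Direction was kept by all 45 named genes followed, under every alternative run. Apart from the targets, these genes were chosen for large ratios in the same pairs, so this was largely built in. For genes shared by both pairs, leaving out a pair simply gives the ratio of the other. Of the 45 genes, 18 passed an adjusted p of 0.05 over both cell types with a variance trend, and Thy1 also with a pseudocount of 64. Thy1, the target of the control siRNA, was also among the Th2 calls below in every setting that made any, except without a filter. Med1 had signals of 46.6 and 169 in Th1 and 25.0 and 112 in Th2, Thy1 siRNA first, with ratios of 1.41 and 1.69. It was not among the genes well above the median, since its Thy1 siRNA arrays lay below the limit. Over both cell types limma called 98 probe sets with a variance trend and 4 with a pseudocount of 64, Med1 among both. With 12 arrays in 1 fit it called 1, which was Med1. For Th2 it called 3 with deposited values and 3 with median centring, 2 with 1 probe set per gene, and 1 each with a pseudocount of 64, without a filter, with the 75th percentile filter and with the trend. For the difference between cell types it called 1 with median centring and 1 without a filter. Leaving out each pair in turn gave 0 to 2 calls for Th2 and 0 to 1 for the difference, with the calls made when a Th1 DN pair at 4 h or 12 h was left out. The shared higher count was 2 with deposited values and with median centring. The shared lower count was 6 with a pseudocount of 1, 5 with quantiles over the paired arrays or a limit of 2 times the median, 1 with a pseudocount of 64 or a limit of 8 times, and 0 with 1 probe set per gene or a 2-fold limit. The Th1 only count was 3 with deposited values and median centring and 2 with quantiles over the paired arrays or a pseudocount of 1, and the Th2 only count was 1 at 2 times the median. The limits of 1.25-fold and 1.5-fold, chosen after seeing the data, gave 9, 57, 3, 27 and 3 for shared higher, shared lower, opposite, Th1 only and Th2 only, against 84, 26, 4, 71 and 5 with deposited values and 103, 24, 4, 70 and 8 with median centring. Past 1.2-fold in both pairs there were 226 higher and 42 lower with deposited values, and 278 and 38 with median centring. Of 90 list medians under an alternative, 28 moved by more than the spread between pairs, 14 with each of these scalings and all upward, as the median of all genes did. The causes were not tested. Arrays could not be paired by culture or animal, because the labels give no replicate numbers. The blocks were the cell type in the fit over both cell types and the pair in the fit of 12 arrays. Without the cell type block limma called 0 over both cell types (231 at an unadjusted p under 0.05). Low signal over background limits Trpm4 and other dim transcripts, and 1 array per condition limits every comparison.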
